A study of Mus musculus with 12 samples.

Results

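Levels of 38 genes of DNA replication and S phase were followed in mouse satellite cells, the Pax7-positive stem cells of skeletal muscle, from before birth to old age. The genes were taken as a fixed list of the enzymes and loading factors that copy DNA, and all 38 were among the 19938 genes measured. Expression was read on 12 single-colour Affymetrix arrays, 3 for each of 4 stages, and is given as deposited RMA values on the log2 scale, where a difference of 1 is a 2-fold change. The number of arrays limits the precision. All cells came from heterozygous Pax7-ZsGreen mice of the C57BL/6 strain and were sorted for the fluorescent protein expressed under Pax7, with gates set by age and wild type SV129 mice as the negative control. Fetal cells were taken at E17.5 from forelimbs and hindlimbs of 4 mice. The other stages were hindlimb cells, adolescent cells at postnatal day 21 from 6 mice, adult cells at 2 to 3 months from 8 mice and aged cells at over 1 year from 8 mice. Limb and stage therefore cannot be told apart in the comparison with fetal cells. The labels do not say whether the arrays of a stage came from separate pools of mice, so the p-values here describe no more than the variation among these arrays, which could be technical.

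Each origin of replication is prepared before S phase by the origin recognition complex, which with Cdc6 and Cdt1 loads the ring-shaped MCM helicase onto DNA. In S phase the ring is activated by Cdc45 and GINS, primase starts each strand, polymerases held by the Pcna clamp extend it, and nuclease and ligase join the pieces while histone chaperones rebuild chromatin behind the fork. Many of these genes are transcribed in late G1 and S phase under E2F factors and are low in resting cells. Satellite cells multiply in fetal and early postnatal muscle and are mostly quiescent in adult muscle.

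Every one of the 38 genes passed limma's F-test over the 4 stages at an adjusted p under 0.05, against 41.6% of all genes. The median over the 38 genes was 8.88, 9.09 and 9.10 on the fetal arrays, 8.73, 8.13 and 8.20 on the adolescent arrays, 7.33, 6.35 and 6.45 on the adult arrays and 6.55, 6.49 and 6.47 on the aged arrays. Levels were thus highest in fetal cells and lowest in adult replicates 2 and 3 and in aged cells, with adult replicate 1 between them and the adolescent arrays. The main step lay between adolescent and adult cells, where 37 of 38 genes fell. These are averages over sorted cells, so fewer cells in S phase and less RNA per cell cannot be told apart.

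**Figure D1:**
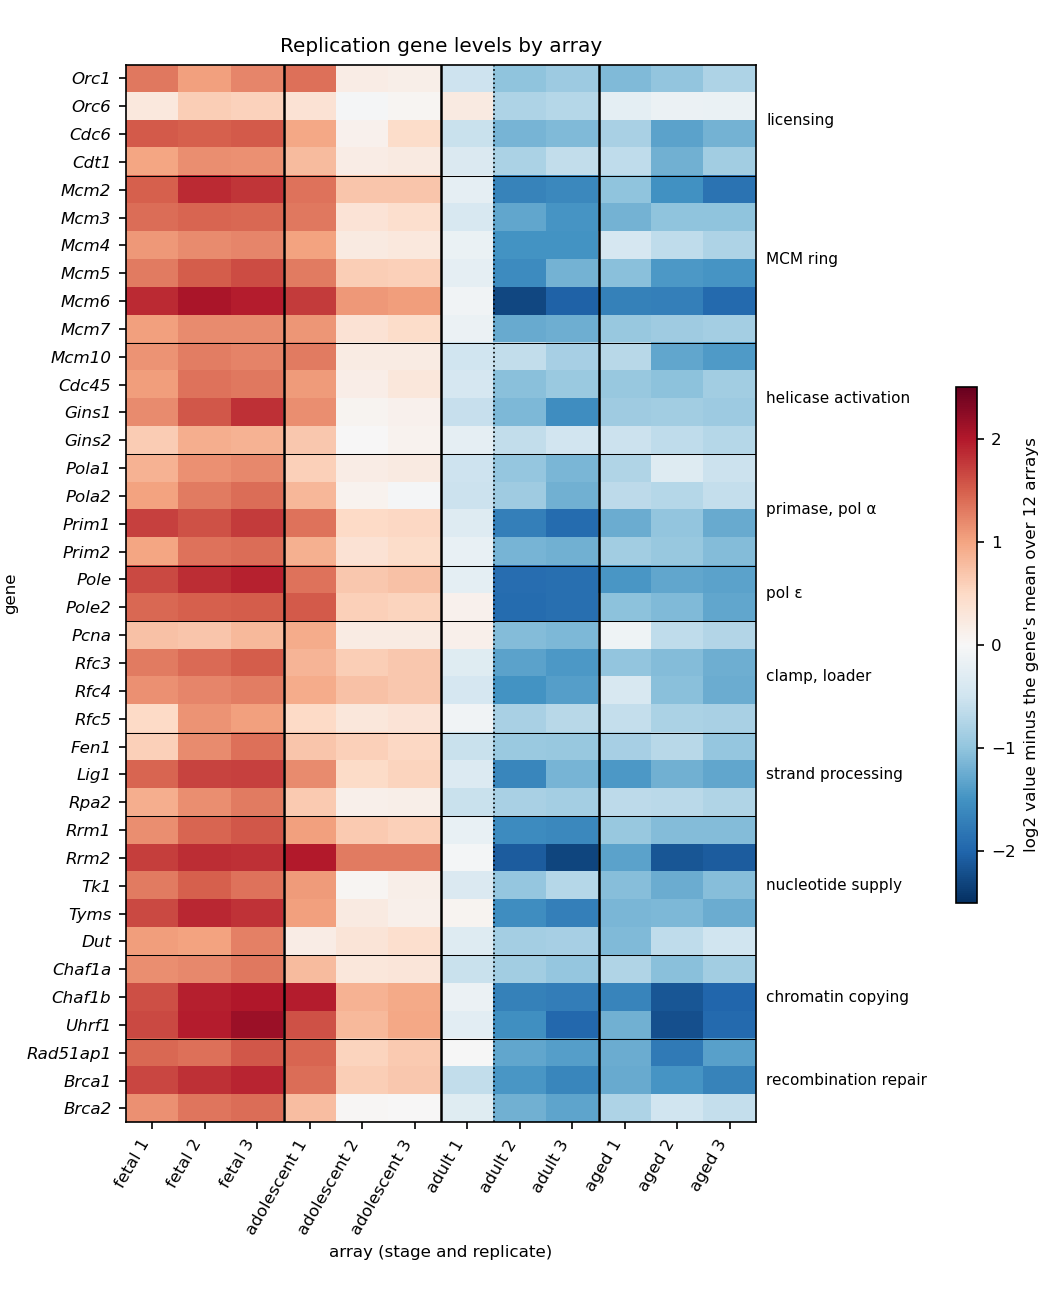
Each of the 38 genes (rows, grouped by role) on each of the 12 arrays (columns, by stage and replicate), coloured by its log2 RMA value minus the gene's mean over all arrays. Fetal arrays are red throughout, adult replicates 2 and 3 and the aged arrays are blue with few exceptions, and adult replicate 1, left of the dotted line, is pale.

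Arrays of a stage were not equally close. Adult replicate 1 correlated with adult replicates 2 and 3 at r = 0.973 and 0.972 across genes, while replicates 2 and 3 of each stage correlated at 0.996 to 0.999. Mki67, which marks cycling cells, read 9.28 on adult replicate 1 and 6.58 and 6.44 on adult replicates 2 and 3. Pax7 lay between 10.36 and 11.71 on all arrays, as the label of the cells calls for. The mean of 1194 olfactory and vomeronasal receptor genes, taken as background, was 4.47 and 4.51 on adult replicates 2 and 3 and 4.31 on aged replicate 1. The 9 remaining arrays ran from 3.80 to 3.92. All 38 genes exceeded the 95th percentile of these receptor genes on every fetal and adolescent array, 37 did so on adult replicate 1, 24 and 21 on adult replicates 2 and 3, and 32, 33 and 34 on the aged arrays. Low levels on adult replicates 2 and 3 therefore lie near background, where a fall can be understated.

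The sequence upstream of these genes was not used to choose them. Of the 38 genes, 33 had an entry in RefSeq's promoter table for GRCm38.p6 (250 bases before to 50 after the start, the first listed start where a gene has several). An E2F site was searched on both strands as TTTGGCGC, TTTCCCGC, TTTGCCGC or TTTCGCGC, an exact match of 8 letters. It was present in 11 of the 33 promoters (33.3%), in 10 of 57 promoters of other replication and repair genes and in 626 of all 27025 promoters (2.32%). The CCAAT box (CCAAT) was in 60.6% of the 33 promoters and 37.9% of all, the GC box (GGGCGG) in 63.6% and 35.9%, and the CHR element (TTTGAA), known from genes of mitosis, in 9.09% and 18.1%. In the 57 promoters of other replication and repair genes the shares were 43.9% (CCAAT), 78.9% (GC) and 22.8% (CHR). The GC and CCAAT boxes can share end letters with an E2F match, and the CHR element cannot. Such matches are a description of letters in a window and do not show binding. Whole promoters are printed for Mcm6, which held 3 matches, for Pole2, which held 1, and for Rrm2, which had the largest fall of all 38 genes and held none. They lie at chr1:128359656-128359955 on the minus strand (Mcm6), chr12:69228141-69228440 on the minus strand (Pole2) and chr12:24708004-24708303 on the plus strand (Rrm2), and capitals mark the E2F letters.
Mcm6: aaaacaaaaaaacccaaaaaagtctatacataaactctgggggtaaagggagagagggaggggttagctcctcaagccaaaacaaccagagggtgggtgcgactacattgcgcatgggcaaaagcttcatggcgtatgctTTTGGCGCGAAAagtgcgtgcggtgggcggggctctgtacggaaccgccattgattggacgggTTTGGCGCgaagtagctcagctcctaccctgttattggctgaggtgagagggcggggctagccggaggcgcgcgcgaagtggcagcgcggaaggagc
Pole2: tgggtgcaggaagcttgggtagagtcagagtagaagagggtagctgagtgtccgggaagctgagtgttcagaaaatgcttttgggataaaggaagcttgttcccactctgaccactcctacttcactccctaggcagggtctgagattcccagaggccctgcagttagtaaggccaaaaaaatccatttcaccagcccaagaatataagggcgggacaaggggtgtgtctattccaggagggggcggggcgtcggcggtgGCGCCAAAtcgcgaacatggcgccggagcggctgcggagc
Rrm2: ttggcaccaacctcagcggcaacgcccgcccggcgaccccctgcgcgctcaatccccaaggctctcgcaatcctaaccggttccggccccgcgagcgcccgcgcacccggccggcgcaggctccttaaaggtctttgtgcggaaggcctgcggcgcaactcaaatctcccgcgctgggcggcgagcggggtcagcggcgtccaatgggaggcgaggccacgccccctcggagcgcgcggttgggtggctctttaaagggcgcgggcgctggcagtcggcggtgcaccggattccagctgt
In Mcm6 the first run of capitals holds a pair of overlapping matches. The promoters of Chaf1b, Brca1 and Prim1, which also fell strongly, held no such letters. The other 9 promoters with a match are shown as windows of 8 bases on either side of it (fewer where the promoter entry ends). The match is again in capitals, and every window holds a match because it was chosen by that match.
Brca2: aggccacaGCGGGAAAcagacaca
Cdc6: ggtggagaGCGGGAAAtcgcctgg
Cdt1: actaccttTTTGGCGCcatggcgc
Mcm3: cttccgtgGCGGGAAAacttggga
Mcm3: tgggaagtTTTGGCGCcaag
Mcm5: ccaagaacTTTCGCGCcaaaacgt
Mcm5: gaactttcGCGCCAAAacgtccag
Mcm7: ttcgaaccGCGGGAAAcagggtgt
Mcm7: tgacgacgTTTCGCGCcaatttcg
Orc1: ggttagtgGCGCGAAAagttttct
Pola1: atcacaggGCGCCAAAtgcactcc
Rfc3: tcgcacgcTTTCGCGCtcgcggga
Rfc3: tcgcgctcGCGGGAAAactctact
Genes with a match differed by a median of -1.53 on the log2 scale in adult against adolescent cells (n = 11) and those without one by -1.47 (n = 22, Orc6 included, which did not pass), and no test was made of that difference.

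The comparison of adult with adolescent cells spans the end of postnatal muscle growth. All of the 6 MCM genes, both polymerase epsilon genes and all 5 nucleotide supply genes fell in adult cells, with Rrm2 8.0-fold, Mcm6 6.7-fold and Chaf1b 5.5-fold lower. In limma's test 37 of 38 genes were lower and 0 higher, against 15.2% of all genes lower and 4.56% higher, and 33 fell at least 2-fold by fitted values. The median difference was -1.52, against 0.03 over all genes. Levels of adult and adolescent arrays did not overlap for 37 genes, against 22.4% of all genes that were lower without overlap. By replicate number, by which the labels state no pairing, the median difference was -1.38, -1.58 and -1.68. Each of the 38 genes was lower in adult cells at each number, as were 57.6%, 47.1% and 47.6% of all genes. Without adult replicate 1 all 38 genes fell, with a median of -1.84 and 36 at least 2-fold lower by fitted values. Of all genes 28.6% were then lower. Only 24 and 21 of the 38 genes exceeded the receptor genes' 95th percentile on adult replicates 2 and 3, and bounds were not applied to this count. After the mean of replicates 2 and 3 was taken as 1 sample in every stage, 9 genes passed (Cdc6, Pola1, Rfc3, Rfc4, Fen1, Lig1, Rpa2, Chaf1a and Brca1), against 1.24% of all genes lower.

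**Figure D2:**
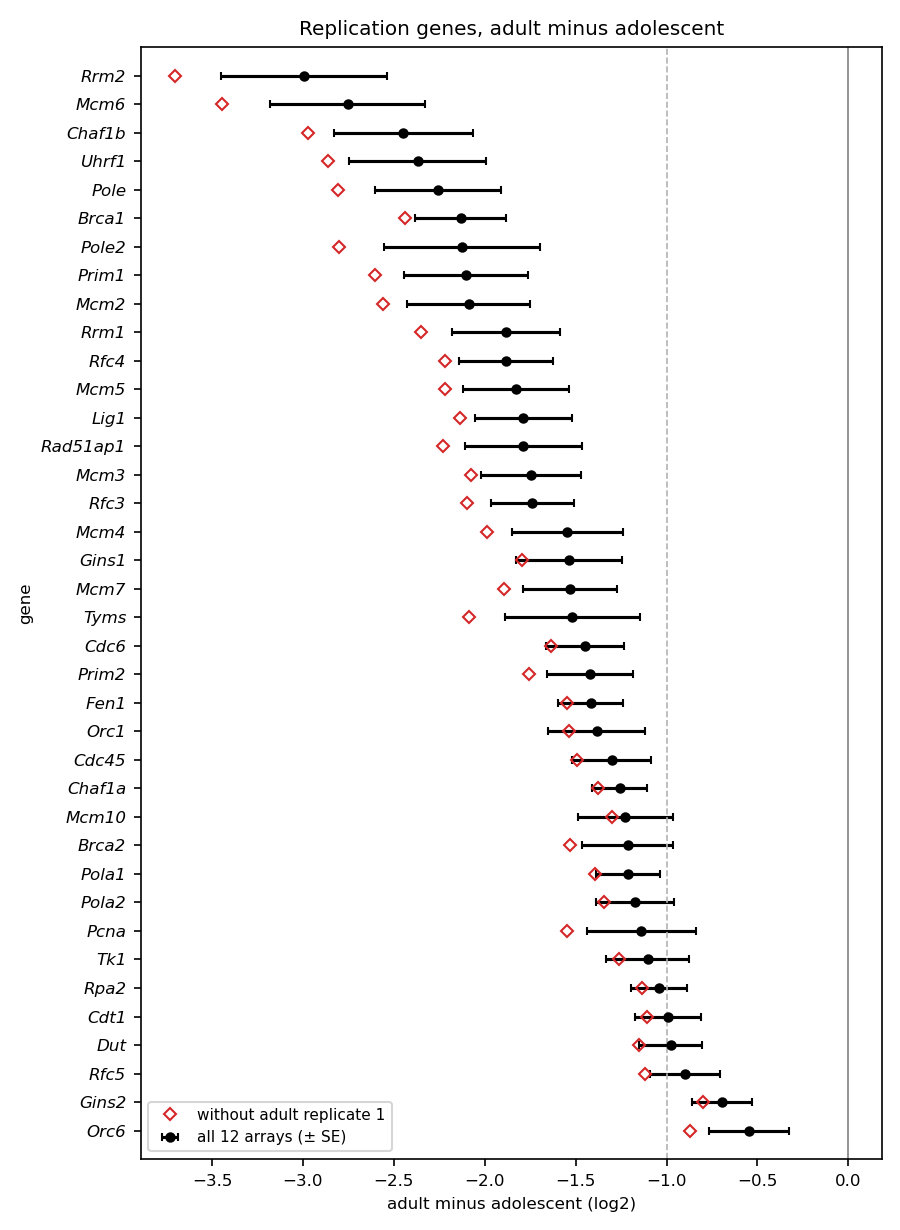
Adult minus adolescent difference (log2, horizontal axis) of each of the 38 genes, ordered by size, with all 12 arrays (black, bars are the SE of the limma fit) and without adult replicate 1 (red diamonds). Every point lies below 0, from -3.00 for Rrm2 to -0.55 for Orc6, and each red diamond lies further from 0.

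Aged cells were also set against adolescent cells, a comparison whose differences do not use the adult levels, although its SE comes from the spread pooled over all stages. Here 37 genes fell and 0 rose by limma's test, against 11.5% of all genes lower and 8.08% higher, with a median of -1.58 (all genes -0.01) and 31 genes at least 2-fold lower by fitted values. All 38 genes were lower without overlap, as were 22.6% of all genes. This comparison shares the adolescent arrays with the one above, so these results are not independent. Brca1, Chaf1b, Rad51ap1 and Orc1 lay at or under the receptor genes' 95th percentile on all aged arrays, which makes their falls lower bounds. Counted from that percentile, they were at least 3.58-fold (Brca1), 8.55-fold (Chaf1b), 4.18-fold (Rad51ap1) and 1.45-fold (Orc1) lower in aged than in adolescent cells. Orc1 was also at that level on all adult arrays, at least 1.15-fold lower than in adolescent cells. With these genes placed at their bounds the medians were still -1.52 (adult) and -1.58 (aged). At least 2-fold lower were then 32 genes in adult and 30 in aged cells. In adult cells this moved Orc1 alone, which was less negative than the median before and after, so the adult median could not change. Genes under that percentile on some arrays of a stage but not on all were left at their fitted values. How far background alters the adult median and count was therefore not tested.

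The licensing factors start the series. Cdc6, the ATPase that brings the MCM ring to origins, read 8.22, 8.18 and 8.21 on the fetal arrays, 7.66, 6.80 and 7.13 on the adolescent arrays, 6.12, 5.53 and 5.58 on the adult arrays and 5.88, 5.35 and 5.50 on the aged arrays (replicates 1 to 3). Its adult and aged values lay below every adolescent value, and the fetal arrays above. Cdc6 fell in adult against adolescent cells (log2 difference -1.45 ± 0.21, adjusted p = 0.000791 by limma, n = 3 each, the SE pooled over all stages here and throughout) and in aged against adolescent cells (-1.62 ± 0.21, adjusted p = 0.000188). Cdt1, its partner in loading, averaged 8.38 in fetal, 7.68 in adolescent, 6.69 in adult and 6.38 in aged cells and fell in adult cells (-0.99 ± 0.18, adjusted p = 0.00284 by limma) and in aged cells (-1.30 ± 0.18, adjusted p = 0.000276) against adolescent cells. Orc1, the subunit of the origin recognition complex whose level follows the cell cycle, averaged 6.70 in fetal, 6.08 in adolescent, 4.70 in adult and 4.56 in aged cells. Orc6, the smallest subunit of that complex, passed in no comparison between stages. It read 9.06, 9.40 and 9.37 on the fetal arrays, 9.14, 8.75 and 8.83 on the adolescent arrays, 9.00, 8.01 and 8.06 on the adult arrays and 8.54, 8.64 and 8.62 on the aged arrays, so that adult replicate 1 lay above adolescent replicates 2 and 3.

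The MCM genes encode the 6 subunits of 1 ring, yet their values differed. Mcm6 read 9.86, 10.04 and 9.97 on the fetal arrays, 9.75, 9.08 and 9.04 on the adolescent arrays, 7.91, 5.72 and 5.97 on the adult arrays and 6.31, 6.30 and 6.06 on the aged arrays. Its 3 adult values were spread over more than 2 units, and all were below every adolescent value. It fell in adult against adolescent cells (-2.75 ± 0.42, adjusted p = 0.001 by limma), and in aged against adolescent cells (-3.07 ± 0.42, adjusted p = 0.000261). Mcm3 averaged 8.89 in fetal, 8.16 in adolescent, 6.41 in adult and 6.40 in aged cells and fell in adult cells (-1.75 ± 0.27, adjusted p = 0.00111 by limma). Mcm5 averaged 9.55 in fetal, 8.90 in adolescent, 7.07 in adult and 6.75 in aged cells, with its fall in aged against adolescent cells at -2.16 ± 0.29, adjusted p = 0.000223 by limma. Mcm2 read 9.67, 10.04 and 9.97 on the fetal arrays, 9.53, 8.87 and 8.87 on the adolescent arrays, 7.94, 6.49 and 6.56 on the adult arrays and 7.16, 6.65 and 6.33 on the aged arrays. Its adult and aged values lay under every adolescent value. Mcm7 averaged 10.11 in fetal, 9.62 in adolescent, 8.09 in adult and 8.08 in aged cells. Mcm4 fell least of the ring in aged against adolescent cells. It read 9.57, 9.66 and 9.69 on the fetal arrays, 9.49, 8.70 and 8.74 on the adolescent arrays, 8.32, 6.99 and 6.98 on the adult arrays and 8.06, 7.84 and 7.72 on the aged arrays, so that all aged arrays lay above adult replicates 2 and 3 and below adult replicate 1. Mcm6 had the same order, and in 19 of the 38 genes all aged arrays lay above adult replicates 2 and 3. The share of all genes for which this holds was not counted, so it cannot be called a trait of these genes. In aged against adolescent cells the ring's differences ran from -3.07 (Mcm6) to -1.10 (Mcm4), and differences between subunits were not tested.

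**Figure D3:**
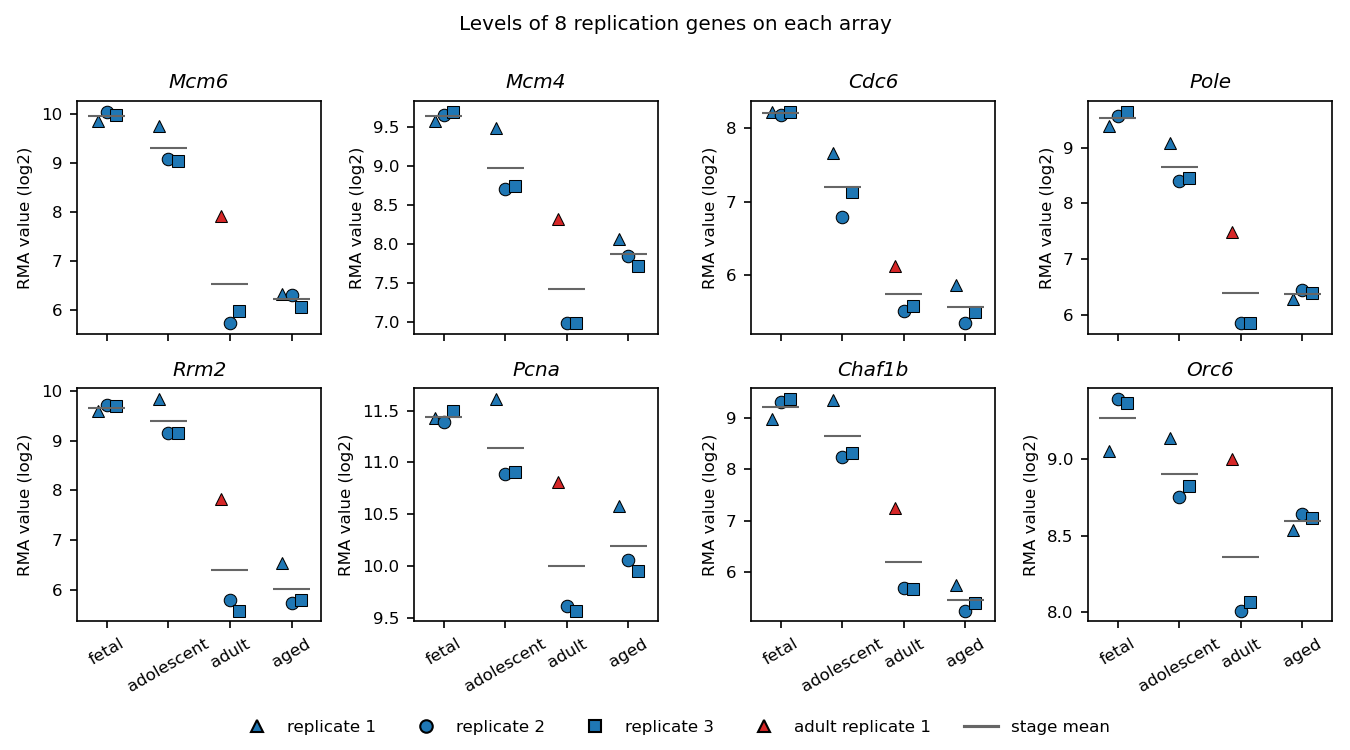
Log2 RMA values of 8 of the genes on each array, by stage, with marker shapes for replicates 1 to 3, adult replicate 1 in red and a line at each stage mean. Adult replicate 1 lies above adult replicates 2 and 3 in all 8 panels, at 7.91 against 5.72 and 5.97 for Mcm6, and aged Mcm4 stays above adult replicates 2 and 3.

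Of the factors that switch the ring on, Cdc45, which completes the active helicase, averaged 8.60 in fetal, 7.87 in adolescent, 6.57 in adult and 6.41 in aged cells and fell in adult cells (-1.30 ± 0.22, adjusted p = 0.00164 by limma). Its value in aged against adolescent cells was -1.46 ± 0.22, adjusted p = 0.000445 by limma. Gins1, a subunit of the GINS complex, averaged 7.89 in fetal, 6.82 in adolescent, 5.28 in adult and 5.48 in aged cells and fell in adult cells (-1.54 ± 0.29, adjusted p = 0.00342 by limma). Mcm10, which despite its name lies outside the ring and helps to activate it, averaged 8.08 in fetal, 7.44 in adolescent, 6.21 in adult and 5.73 in aged cells and fell in aged against adolescent cells (-1.71 ± 0.26, adjusted p = 0.000531 by limma). Gins2 averaged 8.48 in fetal, 7.94 in adolescent, 7.25 in adult and 7.05 in aged cells, the smallest fall among the 37 genes that passed in adult against adolescent cells (-0.69 ± 0.17).

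Primase and polymerase alpha make the starting stretch of each new strand. Prim1, the catalytic primase subunit, read 8.84, 8.73 and 8.88 on the fetal arrays, 8.49, 7.63 and 7.64 on the adolescent arrays, 6.81, 5.42 and 5.21 on the adult arrays and 5.89, 6.15 and 5.86 on the aged arrays. All adult and aged values were under the adolescent ones, and adult replicates 2 and 3 were the lowest of all. Its fall in adult against adolescent cells was -2.10 ± 0.34, adjusted p = 0.00137 by limma, and in aged against adolescent cells -1.95 ± 0.34, adjusted p = 0.0014. Pola1, the polymerase subunit, averaged 9.10 in fetal, 8.36 in adolescent, 7.15 in adult and 7.49 in aged cells and fell in adult cells (-1.21 ± 0.18, adjusted p = 0.000735 by limma). Prim2, the large primase subunit, averaged 9.27 in fetal, 8.59 in adolescent, 7.17 in adult and 7.05 in aged cells and fell in aged against adolescent cells (-1.54 ± 0.24, adjusted p = 0.000551 by limma). Pola2, which tethers the enzyme, averaged 8.93 in fetal, 7.99 in adolescent, 6.82 in adult and 7.04 in aged cells.

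Polymerase epsilon copies the leading strand. Its catalytic subunit Pole read 9.39, 9.58 and 9.65 on the fetal arrays, 9.09, 8.40 and 8.46 on the adolescent arrays, 7.49, 5.84 and 5.85 on the adult arrays and 6.28, 6.43 and 6.39 on the aged arrays. The adult values were lower than every adolescent value, with adult replicate 1 more than 1 unit above the other two. Pole fell in adult cells (-2.26 ± 0.35, adjusted p = 0.00101 by limma) and in aged cells (-2.29 ± 0.35, adjusted p = 0.00052) against adolescent cells. Pole2, its second subunit, averaged 8.64 in fetal, 8.05 in adolescent, 5.93 in adult and 6.01 in aged cells, with differences of -2.13 ± 0.43, adjusted p = 0.00503 (adult against adolescent, limma) and -2.04 ± 0.43, adjusted p = 0.00478 (aged against adolescent, limma).

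Pcna, the sliding clamp that holds polymerases on DNA, read 11.43, 11.39 and 11.49 on the fetal arrays, 11.61, 10.89 and 10.90 on the adolescent arrays, 10.81, 9.61 and 9.57 on the adult arrays and 10.57, 10.06 and 9.95 on the aged arrays. Its second probe set differed from these by at most 0.0395 on an array. Adult replicate 1 lay just under the adolescent replicates 2 and 3, and the fall in adult cells was -1.14 ± 0.30. The clamp is opened by replication factor C. Its subunit Rfc3 averaged 8.97 in fetal, 8.27 in adolescent, 6.53 in adult and 6.46 in aged cells and fell in adult cells (-1.74 ± 0.23, adjusted p = 0.000394 by limma) and in aged cells (-1.81 ± 0.23, adjusted p = 0.000133) against adolescent cells. Rfc4 averaged 10.19 in fetal, 9.76 in adolescent, 7.87 in adult and 8.08 in aged cells and fell in adult cells (-1.88 ± 0.26, adjusted p = 0.000511 by limma) and in aged cells (-1.67 ± 0.26, adjusted p = 0.000575). Rfc5 averaged 10.48 in fetal, 9.97 in adolescent, 9.07 in adult and 8.87 in aged cells.

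Among the genes that finish new strands, Fen1, the nuclease that removes primer flaps, read 7.29, 7.88 and 8.08 on the fetal arrays, 7.40, 7.30 and 7.21 on the adolescent arrays, 6.14, 5.77 and 5.75 on the adult arrays and 5.86, 6.01 and 5.74 on the aged arrays. Its adult and aged values lay under the adolescent ones, and the adolescent values overlapped fetal replicate 1. Fen1 fell in adult cells (-1.42 ± 0.18, adjusted p = 0.000327 by limma) and in aged cells (-1.43 ± 0.18, adjusted p = 0.000127) against adolescent cells. Lig1, the ligase that seals the pieces, averaged 9.57 in fetal, 8.68 in adolescent, 6.90 in adult and 6.63 in aged cells and fell in aged against adolescent cells (-2.05 ± 0.27, adjusted p = 0.00016 by limma). Rpa2, part of the complex that coats single strands, averaged 8.76 in fetal, 7.95 in adolescent, 6.90 in adult and 6.95 in aged cells and fell in adult cells (-1.04 ± 0.15, adjusted p = 0.00076 by limma).

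Nucleotide supply held the largest single fall. Rrm2, the regulated subunit of ribonucleotide reductase, which makes deoxynucleotides, read 9.60, 9.71 and 9.70 on the fetal arrays, 9.84, 9.16 and 9.16 on the adolescent arrays, 7.82, 5.79 and 5.57 on the adult arrays and 6.53, 5.72 and 5.80 on the aged arrays. Adult replicate 1 lay about midway between the adolescent arrays and the other adult arrays, and the aged arrays lay far below the adolescent ones. Its difference was -3.00 ± 0.46, adjusted p = 0.000951 in adult and -3.37 ± 0.46, adjusted p = 0.000224 in aged against adolescent cells by limma. Rrm1, the large subunit, averaged 10.86 in fetal, 10.22 in adolescent, 8.34 in adult and 8.43 in aged cells and fell in adult cells (-1.88 ± 0.30, adjusted p = 0.00111 by limma). Tk1, the thymidine kinase of S phase, averaged 9.13 in fetal, 8.17 in adolescent, 7.07 in adult and 6.62 in aged cells and fell in aged against adolescent cells (-1.55 ± 0.23, adjusted p = 0.000405 by limma). Tyms, which makes thymidylate, averaged 9.96 in fetal, 8.64 in adolescent, 7.12 in adult and 7.01 in aged cells. Dut, which removes dUTP, averaged 8.85 in fetal, 8.07 in adolescent, 7.09 in adult and 7.01 in aged cells.

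Genes that rebuild chromatin or repair forks close the list. Chaf1b, a subunit of the histone chaperone CAF-1, read 8.99, 9.32 and 9.37 on the fetal arrays, 9.35, 8.25 and 8.32 on the adolescent arrays, 7.24, 5.68 and 5.66 on the adult arrays and 5.74, 5.24 and 5.40 on the aged arrays. Adult replicate 1 was more than 1 unit above adult replicates 2 and 3, and every adult and aged value was under the adolescent ones. Chaf1b fell in adult cells (-2.45 ± 0.38, adjusted p = 0.0011 by limma) against adolescent cells. Its fall in aged against adolescent cells (adjusted p = 9.69e-05 by limma) is the lower bound of 8.55-fold given above. Chaf1a, the large CAF-1 subunit, averaged 8.49 in fetal, 7.72 in adolescent, 6.46 in adult and 6.38 in aged cells and fell in adult cells (-1.26 ± 0.15, adjusted p = 0.000246 by limma) and in aged cells (-1.34 ± 0.15, adjusted p = 5.97e-05). Uhrf1, which brings the maintenance DNA methyltransferase to new DNA, averaged 9.41 in fetal, 8.61 in adolescent, 6.25 in adult and 5.71 in aged cells. Brca1, which acts in recombination repair and fork protection, read 8.15, 8.32 and 8.38 on the fetal arrays, 7.88, 7.11 and 7.16 on the adolescent arrays, 5.86, 5.04 and 4.86 on the adult arrays and 5.23, 5.02 and 4.82 on the aged arrays. The adult and aged values lay under every adolescent value, and the fall in adult cells was -2.13 ± 0.25, adjusted p = 0.000231 by limma. Rad51ap1, which acts in recombination repair, averaged 8.18 in fetal, 7.61 in adolescent, 5.82 in adult and 5.27 in aged cells and fell in adult cells (-1.79 ± 0.32, adjusted p = 0.00266 by limma). Brca2, which acts in the same kind of repair, averaged 8.41 in fetal, 7.39 in adolescent, 6.18 in adult and 6.50 in aged cells.

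Values for subunits of 1 complex were spread in adult against adolescent cells, as seen with the partners that are not among the 38 genes. In the origin recognition complex Orc1 fell to background, which gives no more than the bound above, and Orc2 fell by 0.71 on the log2 scale, while Orc3 (-0.32 ± 0.17), Orc4 (-0.21 ± 0.17) and Orc5 (-0.44 ± 0.18) did not pass. In polymerase epsilon Pole and Pole2 differed by -2.26 and -2.13. Its histone-fold subunits Pole3 and Pole4 differed by -0.58 ± 0.15 and -0.54 ± 0.20, and Pole4 did not pass. In polymerase delta, the lagging strand enzyme, Pold1, Pold2 and Pold3 fell by 0.79, 0.76 and 0.66, and Pold4 at 0.30 ± 0.17 did not pass. In replication factor C the falls ran from 1.88 (Rfc4) to 0.78 (Rfc1), and all 5 subunits passed. Rrm2b, the reductase subunit used outside S phase, differed by 0.04 ± 0.12 beside -3.00 for Rrm2, and did not pass. Differences between subunits were not tested.

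**Figure D4:**
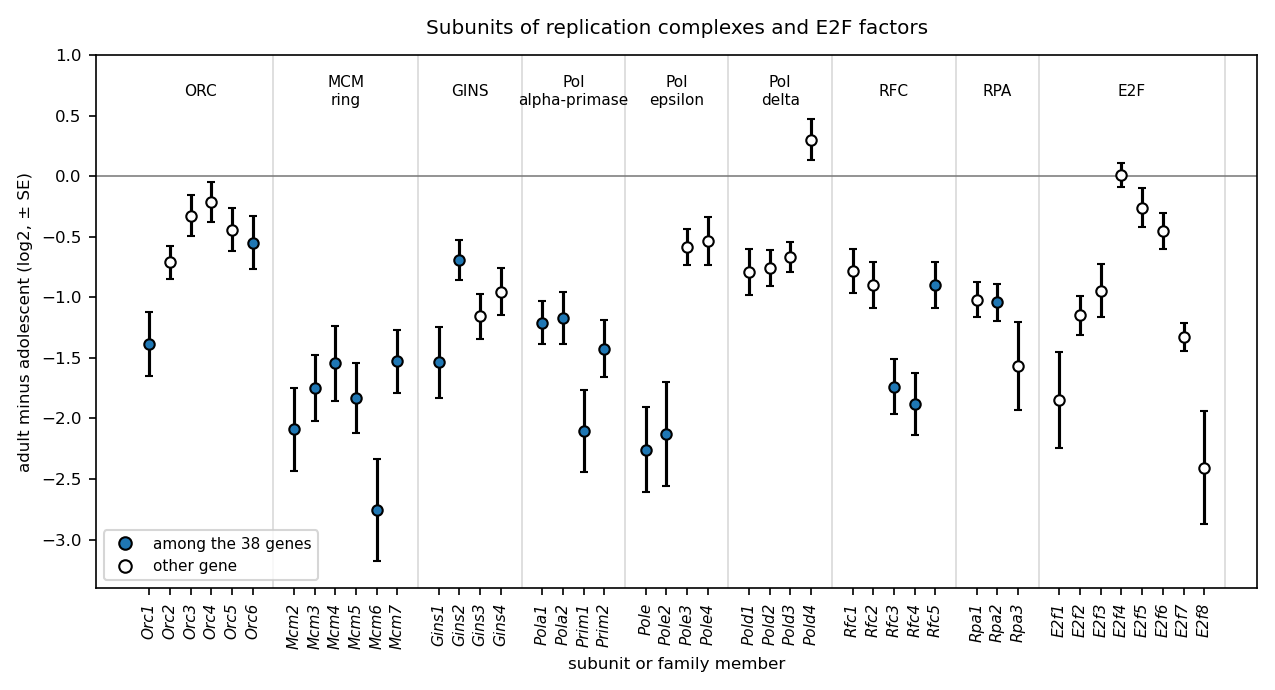
Adult minus adolescent difference (log2, points, with the SE of the limma fit) of subunits of replication complexes and of the E2F factors, filled where the gene is among the 38 and open where it is not. Orc1 is drawn at its fitted value although it lay at background on all adult arrays, Pole (-2.26) and Pole2 lie below Pole3 and Pole4, and E2f8 (-2.41) lies below E2f4 (0.01).

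Beyond the 38 genes, 67 other genes of replication and fork repair were measured. Of these 50 fell and 0 rose in adult against adolescent cells, against 15.2% of all genes lower and 4.56% higher. Their median difference was -0.85. The genes named from each group are those with the smallest p, which need not have the largest fall. The 9 origin-firing genes had 8 falls, with Dbf4 (-2.07 ± 0.25, adjusted p = 0.000246 by limma) and Cdc7 (-1.55 ± 0.22, adjusted p = 0.000567), the subunits of the kinase that fires origins, and Gins3 (-1.16 ± 0.18). Of 8 origin and licensing genes 4 fell, among them Mcm8 (-0.88 ± 0.21) and Gmnn, the inhibitor of Cdt1, which was not above the receptor genes' 95th percentile on any adult array. Fork enzymes fell in 11 of 15 cases, among them Dna2 (-1.43 ± 0.20), a nuclease, Rpa1 (-1.02 ± 0.14) and Rnaseh2b (-1.35 ± 0.24). All 8 chromatin-copying genes fell, with Asf1b (-2.55 ± 0.30), a histone chaperone, Dnmt1 (-1.20 ± 0.15), the maintenance DNA methyltransferase, and Nasp (-1.39 ± 0.18). All 9 recombination genes fell, among them Rad54l (-1.94 ± 0.22), Fanci (-1.55 ± 0.20) and Brip1 (-1.95 ± 0.26). Nucleotide supply had 6 falls among 9 genes, with Umps (-0.91 ± 0.15), Dck (-1.36 ± 0.24) and Nme1 (-1.03 ± 0.19). The fork checkpoint had 4 falls among 9, with Chek1 (-2.17 ± 0.32), the checkpoint kinase, Timeless (-0.85 ± 0.13) and Hus1 (-0.59 ± 0.13). Of 10 polymerases of repair and translesion synthesis only Polq (-1.15 ± 0.17) and Polh (-1.16 ± 0.19) fell, near the share of all genes. The list's median was -0.14. Polm differed by -0.15 ± 0.10 and did not pass.

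The E2F and DP factors, which drive or repress transcription of replication genes, were mixed. In adult against adolescent cells 6 of 10 fell and 0 rose, against 15.2% of all genes lower and 4.56% higher. E2f1, an activator, read 9.17, 9.09 and 9.10 on the fetal arrays, 9.25, 8.05 and 8.14 on the adolescent arrays, 7.69, 5.98 and 6.22 on the adult arrays and 6.60, 5.91 and 6.02 on the aged arrays, and its difference was -1.85 ± 0.40, adjusted p = 0.00712 by limma. Adolescent replicate 1 was as high as the fetal arrays, and adult replicate 1 lay nearer to adolescent replicates 2 and 3 than to the other adult arrays. E2f8, a repressor made in S phase, fell by 2.41 ± 0.47, and E2f2, an activator, by 1.15 ± 0.16. E2f7, the close relative of E2f8, read 9.34, 9.35 and 9.34 on the fetal arrays, 8.15, 7.69 and 7.80 on the adolescent arrays, 6.61, 6.47 and 6.58 on the adult arrays and 6.05, 6.14 and 6.09 on the aged arrays. Adult replicate 1 lay close to the other adult arrays, and no stages overlapped. E2f7 fell at each step, in adolescent against fetal cells (-1.46 ± 0.11, adjusted p = 1.36e-06 by limma), in adult against adolescent cells (-1.32 ± 0.11, adjusted p = 4.08e-05) and in aged against adult cells (-0.46 ± 0.11, adjusted p = 0.0454). The last of these did not pass with replicate number as a block (adjusted p = 0.0741 by limma) or with replicates 2 and 3 averaged (adjusted p = 0.672), and it passed without adult replicate 1 (adjusted p = 0.017). E2f4, which acts in resting cells, differed by 0.01 ± 0.10 in adult against adolescent cells and did not pass.

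Adolescent cells were next compared with fetal cells. By limma 15 of 38 genes fell and 0 rose in adolescent cells, against 8.68% of all genes lower and 10.1% higher, with a median of -0.70 (all genes 0.02). The 15 were Cdc6, Cdt1, Cdc45, Gins1, Gins2, Pola1, Pola2, Lig1, Rpa2, Tk1, Tyms, Dut, Chaf1a, Brca1 and Brca2, and 0 of the 6 MCM genes passed. Without adult replicate 1, which enters through the pooled spread, all 6 MCM genes passed (Mcm6 at -0.66 ± 0.17, adjusted p = 0.00966 by limma, and Mcm7 at -0.49 ± 0.15, adjusted p = 0.0345). The largest of these falls were in Tyms (-1.33 ± 0.37), Gins1 (-1.07 ± 0.29, adjusted p = 0.0201 by limma) and Brca2 (-1.02 ± 0.25, adjusted p = 0.0116). Cdc6 differed by -1.01 ± 0.21, adjusted p = 0.00445 and Cdt1 by -0.70 ± 0.18, adjusted p = 0.016 in limma's test. The remaining pairs were Cdc45 (-0.73 ± 0.22) among helicase activators, Pola2 (-0.94 ± 0.21) and Pola1 (-0.74 ± 0.18) among primase and polymerase alpha genes, and Rpa2 (-0.82 ± 0.15) and Lig1 (-0.88 ± 0.27) among strand processing genes. Dut (-0.79 ± 0.17), Tk1 (-0.96 ± 0.23), Chaf1a (-0.77 ± 0.15) and Brca1 (-0.90 ± 0.25) fell as well. Levels were lower without overlap for 25 genes, and for 18.9% of all genes. Markers of cell types also differed between these stages. All 8 satellite cell markers were higher in adolescent cells, with a median of 10.49 to 10.60 on adolescent and 9.44 to 9.57 on fetal arrays. Of 6 endothelial markers 5 were higher (median 8.59 to 9.20 on adolescent and 6.94 to 8.28 on fetal arrays), as were 3 of 6 myofibre markers (8.63 to 9.11 on adolescent and 7.27 to 8.16 on fetal arrays). Of 4 fibroblast markers 3 were lower (7.94 to 8.23 on adolescent and 8.63 to 9.69 on fetal arrays), as was 1 of 5 macrophage markers (5.62 to 6.12 on adolescent and 5.65 to 5.86 on fetal arrays), and 0 of 4 lymphocyte markers passed. Their part in the replication gene differences was not tested.

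The count depended on the arrays used. Adolescent replicate 1 lay above adolescent replicates 2 and 3 in 37 of 38 genes, Dut being the exception, with a median gap of 0.69, where 45.3% of all genes lay above. In 13 genes it reached the lowest fetal array or more, whereas adolescent replicates 2 and 3 were under every fetal array in 37. Shares of all genes were not counted for these orders. Replicate by replicate, adolescent minus fetal had a median of -0.11 for number 1, with 25 genes lower and 13 higher. The median was -0.98 for number 2 and -1.01 for number 3, with all 38 lower in both. Of all genes 44.9%, 52.6% and 43% were lower for numbers 1 to 3. Mki67 read 10.56, 10.54 and 10.55 and Top2a, the topoisomerase of dividing cells, 9.98, 10.15 and 10.04 on the adolescent arrays, so these cycling markers were level where the replication genes were not. The median of 6 endothelial markers was 9.20 on adolescent replicate 1 and 8.59 and 8.67 on replicates 2 and 3, and its part in the gap was not tested. The count of falls was 6 without adolescent replicate 2 (5.8% of all genes) or without adolescent replicate 3 (5.95%), 8 without fetal replicate 2 (6.38%) or without fetal replicate 3 (5.91%), and 29 without adult replicate 1 (12.3%). It was 28 in a fit of these stages alone (13.2%), 38 with array weights (19.6%) or with replicates 2 and 3 only (19.3%) and 0 with these averaged (3.01%).

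**Figure D5:**
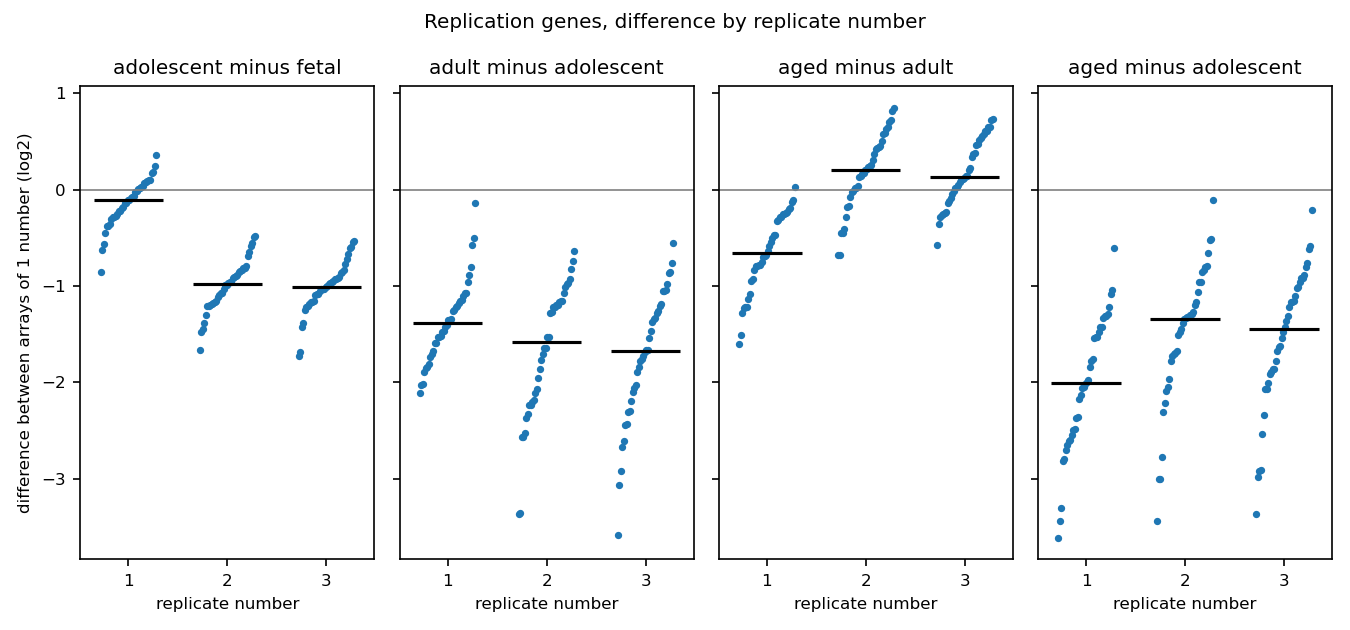
Differences between arrays of the same replicate number (log2, vertical axis) for the 38 genes in each of the 4 comparisons, 1 point a gene, with a line at the median. In adolescent minus fetal, number 1 is centred at -0.11 and numbers 2 and 3 near -1, in aged minus adult number 1 lies at -0.66 and numbers 2 and 3 at 0.21 and 0.13, and in both comparisons with adolescent cells all points are below 0.

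Between aged and adult cells none of the 38 genes passed with all arrays in the fit. By limma 0 of them rose and 0 fell in aged against adult cells, where 3.28% of all genes rose and 0.216% fell, and 0 of the 38 genes had an unadjusted p under 0.05. The median difference was -0.09 (all genes -0.01). Tk1 was the only gene whose arrays did not overlap, at 6.69, 6.50 and 6.68 on the aged arrays and 7.39, 6.79 and 7.03 on the adult arrays, while 5.78% of all genes were lower without overlap, and it did not pass (-0.45 ± 0.23, adjusted p = 0.269 by limma). Its second, dimmer probe set read 6.51, 5.83 and 6.04 on the aged arrays and 6.82, 6.83 and 6.69 on the adult arrays. Of the 67 other replication genes 1 rose and 0 fell. It was Samhd1, which breaks down deoxynucleotides, at 8.31, 8.87 and 8.77 on the aged arrays and 8.19, 7.91 and 7.92 on the adult arrays. Aged and adult arrays of Samhd1 did not overlap, and its difference was 0.64 ± 0.15 (adjusted p = 0.0373 by limma). Samhd1 did not pass with replicate number as a block (adjusted p = 0.0802 by limma) or with replicates 2 and 3 averaged (adjusted p = 0.901).

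The outcome depended on adult replicate 1. That array lay above adult replicates 2 and 3 in all 38 genes, with a median gap of 0.99 (44.2% of all genes lay above). On a scale from the mean of adult replicates 2 and 3 to the adolescent mean it stood at a median of 51.5% over the 36 genes with a span of at least 1 unit, from 17.2% to 81.5%. Over all 902 genes with that span the median was 56.1%. All aged arrays were below adult replicate 1 for 36 genes (the exceptions being Pola1 and Rfc4), while all were above adult replicates 2 and 3 for 19 genes and below both for Tk1. The shares of all genes in these orders were not counted. Without adult replicate 1, limma called 10 genes higher and 0 lower in aged cells, with a median of 0.20, against 20.3% of all genes higher and 19.1% lower. These were Mcm4 (0.89 ± 0.19, adjusted p = 0.00671), Orc6 (0.56 ± 0.13, adjusted p = 0.00849), Pola1, Prim1, Pole, Pole2, Pcna, Rfc4, Rrm1 and Brca2. The 10 genes are 26.3% of the 38, a share near that of all genes.

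With replicate 1 of every stage left out, 18 genes rose and 4 fell in aged against adult cells. Of all genes 35.4% were higher and 33.5% lower. The falls were in Cdt1, Mcm10, Tk1 and Chaf1b, the last at background on these aged and adult arrays. Mcm3, Mcm6, Gins1, Prim1, Pole, Pole2 and Brca2 rose from adult means of 5.03 (Gins1) to 6.08 (Mcm3). Those means lay under the receptor genes' 95th percentile on adult replicates 2 and 3 (6.15 and 6.14). Means of the other genes that rose lay above it, and Mcm10 lay near it at 6.14. With array weights 14 rose and 1 fell, against 34.5% of all genes higher and 34% lower. After replicates 2 and 3 were averaged, 0 of the 38 genes passed in either direction, and 0.01% of all genes were higher and 0% lower. Background moved with the adult arrays, since the receptor genes were highest on adult replicates 2 and 3, and its part in the differences was not tested. Markers of other cells moved too. The median of 6 endothelial markers was 8.59 to 9.20 on adolescent, 7.83 to 8.31 on adult and 8.91 to 9.56 on aged arrays, and that of 6 myofibre markers was 8.63 to 9.11 on adolescent, 7.87 to 8.52 on adult and 8.13 to 8.36 on aged arrays. The median of 8 satellite cell markers was 10.49 to 10.60 on adolescent, 10.83 to 10.95 on adult and 10.71 to 10.94 on aged arrays. The median of 4 fibroblast markers was 7.94 to 8.23 on adolescent, 7.16 to 7.50 on adult and 6.90 to 7.29 on aged arrays. That of 5 macrophage markers was 5.62 to 6.12 on adolescent, 5.32 to 6.26 on adult and 5.84 to 6.61 on aged arrays, and that of 4 lymphocyte markers 4.36 to 4.73 on adolescent, 4.46 to 4.97 on adult and 4.73 to 5.34 on aged arrays. The part of these markers in the replication gene differences was not tested.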

How the data were processed

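RMA summaries were made in Affymetrix Expression Console 1.2.1.20, per the submitters' processing notes. As deposited, the values are log2 intensities, and they were not transformed further. The genome build is not given in the sources used here. Of 35556 probe sets, 21789 carried 1 gene symbol, and the brightest probe set of each gene gave 19938 genes. Only Pcna and Tk1 among the 38 genes had a second probe set.

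A mean for each stage was fitted over all 12 arrays with limma 3.58.1 in R 4.3.3 with 8 residual degrees of freedom. Adjustment (Benjamini-Hochberg) was over 19938 genes with a threshold of 0.05, and only genes past it are said to rise or fall. With 3 arrays against 3, an exact permutation test cannot give a p under 0.1. Deviations from stage means correlated between equal replicate numbers of adult and adolescent arrays at 0.362, 0.317 and 0.239, but the labels state no pairing and correlations of 0.24 and 0.293 were also found between numbers 2 and 3.

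The 38 genes, the other lists and the tests were chosen with earlier results of these data known. Genes for full statistics were at most 2 per role and comparison, those with the smallest p among those that passed. Some of them are printed without an adjusted p or only as a bound. Other lists are represented by up to 3 genes with the smallest p in adult against adolescent cells. Subunits of complexes and Samhd1 were picked after their values were seen. The procedure was tested on simulated arrays of 19938 genes. Each value was drawn independently, so a shift shared by many genes of an array, as on adult replicate 1, was not simulated. Of 19738 unchanged genes 3 to 11 were called in a comparison. At a 4-fold change 65 of 66 genes (adolescent against fetal) and 66 of 66 (each other comparison) were recovered, at 2-fold 53 to 57 of 67 and at 1.5-fold 21 to 33 of 67.

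Alternatives were centring, repeated quantile normalization, the mean of probe sets, a filter on dim genes, fits of 2 stages alone, array weights, a variance with trend and robust estimation, a replicate block and leaving out each array. Averaging replicates 2 and 3, and using them alone, were added after the data were seen.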

Additional observations from a re-analysis of the deposited data

How the results depend on the processing

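The medians kept their direction under every alternative run, except in aged against adult cells. In adolescent against fetal cells the number of falls, 15 with all arrays, was 28 in a fit of the 2 stages alone (13.2% of all genes), 38 with array weights (19.6%), 38 with replicates 2 and 3 only (19.3%) and 0 with these averaged (3.01%). It ran from 6 to 29 when 1 array was left out (5.8% to 12.3% of all genes), and the median with replicates 2 and 3 only was -0.97. In adult against adolescent cells falls numbered 9 with replicates 2 and 3 averaged (1.24% of all genes), and 34 to 38 when 1 array was left out (7.49% to 28.6%). In aged against adult cells the median of -0.09 turned to 0.12 with array weights, 0.20 without adult replicate 1 and 0.16 with replicates 2 and 3 only, and ran from -0.27 to 0.20 when 1 array was left out. Rises there, 0 with all arrays, numbered 14 with array weights (34.5% of all genes), 18 with replicates 2 and 3 only (35.4%) and 0 to 10 when 1 array was left out (1.07% to 20.3%), and falls numbered 1 with array weights (34%) and 4 with replicates 2 and 3 only (33.5%). The weight of adult replicate 1 was 0.0867, the lowest of all arrays, and the cause of these shifts was not tested. In aged against adolescent cells falls numbered 34 to 37 when 1 array was left out (8.04% to 16.4% of all genes). For genes of the list 53 differences had been chosen for full statistics, all from those that passed with all arrays. Aged against adult cells, where no gene of the list passed, is not among them. Of the 1166 repeats of these differences 1114 still passed, 52 no longer passed and 0 changed direction. Chosen in this way, they do not show how stable the whole list is. Averaging replicates 2 and 3 gave 26 of the 52.

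With replicate number as a replicate block, 16 falls were found in adolescent against fetal cells (8.04% of all genes) and 37 each in adult (13.6%) and in aged (10.8%) against adolescent cells, and 0 genes passed in aged against adult cells. The block moved no count by more than 1.5 times. Signal limits the lowest genes: Orc1 in adult cells and Orc1, Chaf1b, Rad51ap1 and Brca1 in aged cells were not above the receptor genes' 95th percentile on any array.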
